A study of Mus musculus with 9 samples.

Results

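Messenger RNA levels of 9 genes for amino acid transporters (Slc7a5, Slc3a2, Slc1a5, Slc38a1, Slc38a2, Slc7a1, Slc7a6, Slc7a7 and Slc43a1) were examined among the 18188 genes that each library lists. The genes were taken by symbol as a set of plasma membrane carriers of amino acids, by a rule that sets no threshold on a measured value. All 9 were found and all 9 passed the filter on low values used for testing. The data were poly(A)-selected RNA sequencing of CD8+ T cells from mouse spleens, in 4 libraries of Rig1 KO genotype and 5 of WT genotype. Rig1 names the gene for RIG-I, a cytosolic sensor of viral RNA. The labels give no strain, age, sex, treatment or allele design, and do not say whether the knockout was confined to some cells. They number the libraries within each genotype without naming animals, and p-values therefore describe how far these particular libraries scatter, which could be technical scatter alone.

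Amino acid transporters of the solute carrier (SLC) superfamily bring into a cell the amino acids it cannot make fast enough for protein synthesis. In T cells they are known to rise after activation, when leucine and glutamine uptake is needed to keep the growth kinase mTORC1 active and to support growth and division. Several of these carriers work as pairs, in which a light chain that carries the amino acid is held at the membrane by the heavy chain Slc3a2 (CD98), so the level of the heavy chain matters for more than a single carrier.

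Reads were recovered from the deposited TPM (a level scaled by gene length and library total) as lower bounds. Over the listed genes they summed to between 15496262 and 17893558 per library. The least-covered transporter, Slc43a1, had at least 74 reads in each. The targeted gene, listed as Ddx58, ranged from 30.6 to 35.2 TPM in Rig1 KO libraries and from 63.2 to 67.4 TPM in WT libraries, so part of its transcript was still counted in the knockout. Defining T cell markers were high in all libraries, with the CD8 T cell list (Cd3d, Cd3e, Cd3g, Cd8a and Cd8b1) summing to 4149 to 4618 TPM in Rig1 KO and 2857 to 3374 TPM in WT. Transcripts of other cell types were present and some moved with the groups, by the test described below. In that test 33.5% of all tested genes were higher and 12.2% lower in Rig1 KO. All 5 CD8 T cell markers were themselves called higher in Rig1 KO. After the median ratio scaling described below 3 of the 5 were, beside 23.7% of all tested genes. All 4 platelet markers tested were lower in Rig1 KO (summed TPM 31.2 to 39.3 in Rig1 KO and 180 to 242 in WT), as were 7 of 8 B cell markers (93.7 to 198 and 165 to 1160). All 5 basophil and mast cell markers were higher (207 to 404 in Rig1 KO and 11.7 to 46.3 in WT), as were 4 of 5 natural killer cell markers (391 to 437 and 170 to 233). Of the other lists, 1 of 2 plasma cell markers and 2 of 11 macrophage and monocyte markers were higher. For neutrophils, 2 of 7 were higher and 2 lower, for CD4 T cells 1 of 3 was lower, and for dendritic cells 0 of 4 passed. Beside the shares of all tested genes, these small counts say little on those cells. The libraries are bulk samples, in which fewer cells of a type and less RNA per cell cannot be told apart. The part of these other cells in the results below was not tested.

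The transporter genes did not move as a group. The amino acid carrier Slc38a2 and the heavy chain Slc3a2 were at about 47.1% and 51.4% of their WT means in Rig1 KO, and the light chain Slc7a5 was lower by a smaller amount. Slc43a1 was 2.03-fold higher in Rig1 KO, and the light chain Slc7a6 was 1.19-fold higher. The levels of Slc1a5, Slc38a1, Slc7a1 and Slc7a7 did not pass the test. In counts, 2 of the 9 rose and 3 fell. In the same test 33.5% of all 10540 tested genes were higher and 12.2% lower in Rig1 KO, 45.7% in all, so the number of transporters called was near the background. Calls are from limma on log2(TPM + 1), with p-values adjusted by the Benjamini-Hochberg method for the whole table and called under 0.05. Values did not overlap between the groups for 4 of the 9 (Slc38a2, Slc3a2, Slc7a6 and Slc43a1), against 38.1% of tested genes. Their median log2 fold change was 0.02, beside 0.13 for all tested genes and 0.18 for the 187 tested genes with a solute carrier symbol, of which 75 were higher and 26 lower.

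**Figure D1:**
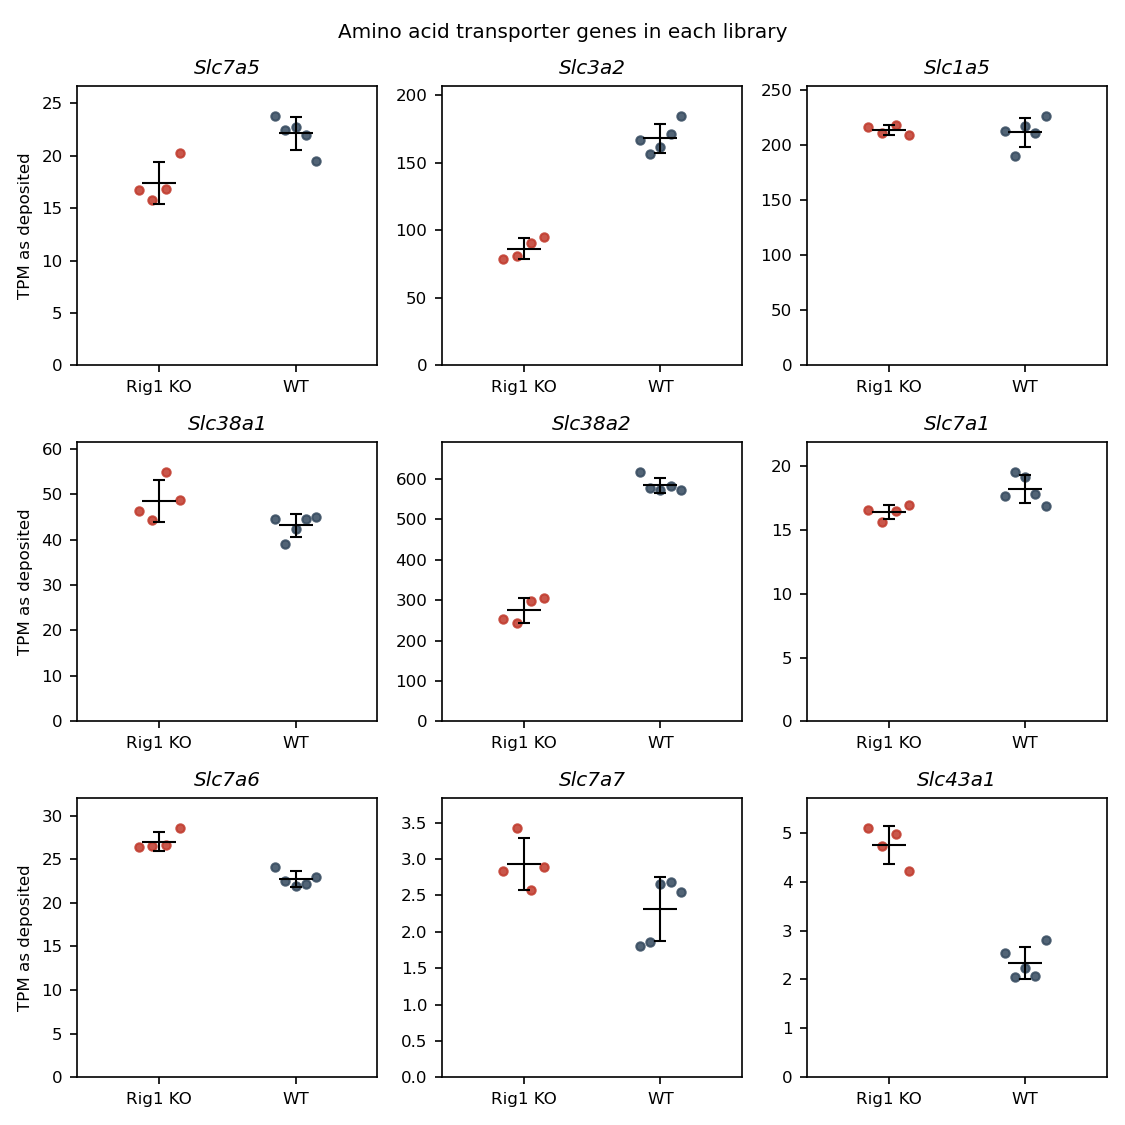
TPM as deposited (vertical axes, each from 0) of the 9 transporter genes, with 1 point per library, 4 Rig1 KO libraries in red and 5 WT libraries in dark blue; the bar is the mean and the whiskers 1 SD. The Rig1 KO points of Slc38a2 and Slc3a2 all lie below the WT points, and those of Slc43a1 all lie above them.

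The shift of all genes matters for the small changes. Over all 10540 genes the median log2 fold change of 0.13 became 0.01 after median ratio scaling, which sets the typical gene to no change. After that scaling 23.7% of tested genes were higher and 21.4% lower, and 1 transporter gene was higher (Slc43a1) and 4 were lower (Slc38a2, Slc3a2, Slc7a5 and Slc7a1). The calls of Slc38a2, Slc3a2, Slc7a5 and Slc43a1 held under both scalings, whereas those of Slc7a6 and Slc7a1 depended on the scaling.

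**Figure D2:**
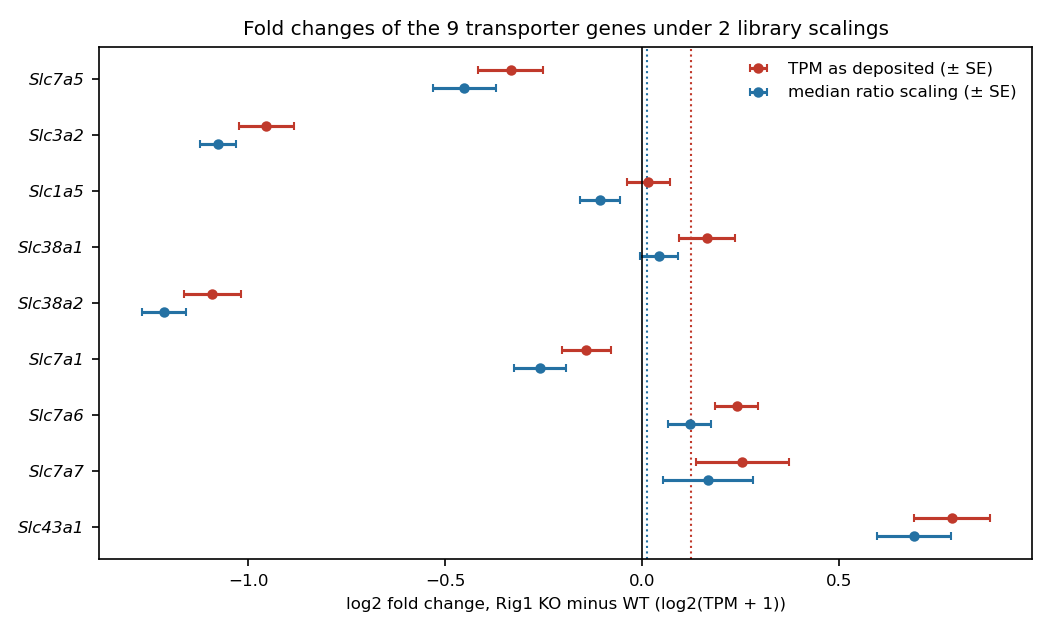
Log2 fold change (horizontal axis, Rig1 KO minus WT, on log2(TPM + 1)) of each transporter gene, with TPM as deposited in red and after median ratio scaling in blue; whiskers are 1 SE and the dotted lines are the medians of all tested genes, 0.13 and 0.01. Slc38a2 and Slc3a2 lie near -1 and Slc43a1 near 0.8 with either scaling, while the other genes lie nearer to the dotted lines.

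Slc3a2 encodes the CD98 heavy chain, the glycoprotein partner of the light chains Slc7a5, Slc7a6 and Slc7a7. It had 79.2, 81.0, 90.3 and 95.2 TPM in Rig1 KO libraries 1 to 4, against 167, 156, 162, 171 and 185 TPM in WT libraries 1 to 5. Every Rig1 KO library was far below the lowest WT library. The means were 86.4 ± 7.62 TPM in Rig1 KO (SD, n = 4) and 168 ± 10.8 TPM in WT (SD, n = 5), a log2 fold change of -0.95 (SE 0.070, limma adjusted p = 2.77e-06). Of all tested genes, 3.06% had a lower fold change.

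Slc7a5 encodes the light chain that with Slc3a2 forms the large neutral amino acid transporter LAT1, the main entry route of leucine in activated T cells. It had 16.7, 15.7, 16.8 and 20.3 TPM in Rig1 KO libraries and 23.8, 22.5, 22.8, 22.0 and 19.5 TPM in WT libraries. The groups overlapped, since Rig1 KO 4 was above WT 5. The mean was 17.4 ± 1.98 TPM in Rig1 KO and 22.1 ± 1.59 TPM in WT (SD, n = 4 and 5), with a log2 fold change of -0.33 (SE 0.083, limma adjusted p = 0.00769). Without Rig1 KO 1 and 2, the pair with the lower values of Slc38a2 and Slc3a2, it no longer passed (-0.25, adjusted p = 0.0712). In the GRCm38 annotation the gene model Gm20388 spans the whole of Slc7a5 on the opposite strand. The sources used here do not give the strand setting of the counting, so reads of such partners cannot be told apart.

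The light chain Slc7a5 was higher relative to its heavy chain in Rig1 KO. The ratio of Slc7a5 to Slc3a2, which does not depend on how libraries are scaled, was 0.212, 0.194, 0.186 and 0.213 in Rig1 KO libraries, against 0.143, 0.144, 0.141, 0.129 and 0.106 in WT libraries. No Rig1 KO ratio overlapped the WT ratios, and the mean log2 ratio was higher in Rig1 KO by 0.61. A two-sided exact permutation test of the log2 ratio gave p = 0.0159, the smallest that this test can give for 4 against 5 libraries. The adjusted p was 0.0212 over the 4 ratios tested. Slc3a2 alone already separated the groups and fell more than Slc7a5, so this ratio largely restates the fall of Slc3a2. The ratio of Slc7a6 to Slc7a5 was also higher in Rig1 KO, at 1.57, 1.69, 1.58 and 1.41 in Rig1 KO and 1.01, 1.00, 0.963, 1.00 and 1.17 in WT. The exact permutation test gave the same p of 0.0159 (adjusted p = 0.0212), for a difference of 0.60 on the log2 scale. Slc7a6 alone already separated the groups and Slc7a5 was called lower, so this ratio largely restates the changes of the 2 genes. How often ratios of other gene pairs separate the groups was not tested. These ratios are of deposited TPM, whose gene lengths include introns, so their size is not the molar ratio of the transcripts. With exon lengths the Slc7a5 to Slc3a2 ratio was 0.308 ± 0.020 in Rig1 KO and 0.203 ± 0.025 in WT (SD, n = 4 and 5).

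**Figure D3:**
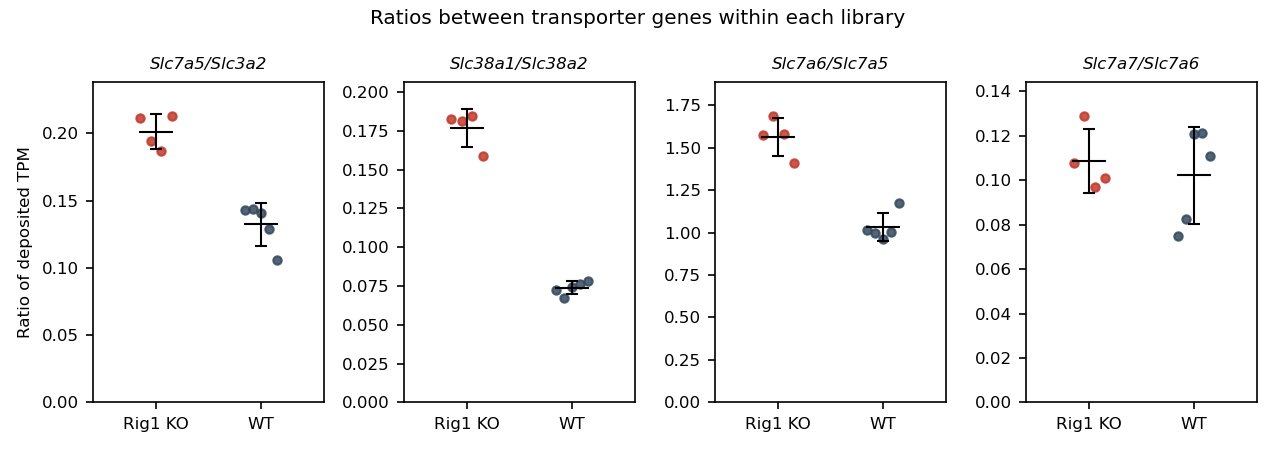
Ratios between the deposited TPM of 2 transporter genes within each library (vertical axes, each from 0, no unit), with 4 Rig1 KO libraries in red and 5 WT libraries in dark blue; the bar is the mean and the whiskers 1 SD. The first 3 ratios do not overlap between the groups, and the Slc7a7 to Slc7a6 ratio does.

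Slc38a2 encodes SNAT2, a sodium-coupled carrier of small neutral amino acids whose transcript is known to rise in amino acid shortage. It was the member with the largest change. Its level was 253, 244, 297 and 306 TPM in Rig1 KO libraries and 617, 578, 572, 582 and 573 TPM in WT libraries. No Rig1 KO library came near the WT range. Averages were 275 ± 31.2 TPM in Rig1 KO (SD, n = 4) and 584 ± 18.9 TPM in WT (SD, n = 5), with a log2 fold change of -1.09 (SE 0.072, limma adjusted p = 1.43e-06). Among the 187 solute carrier genes tested, Slc38a2 ranked 4 and Slc3a2 ranked 5 from the lowest fold change. Within the Rig1 KO group, libraries 1 and 2 were below libraries 3 and 4 for Slc38a2 and for Slc3a2.

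Slc38a1 encodes SNAT1, the closest relative of Slc38a2 in the set and a carrier of glutamine. Unlike Slc38a2 it was not lower in Rig1 KO. It had 46.2, 44.3, 54.9 and 48.7 TPM in Rig1 KO libraries, against 44.6, 39.0, 42.4, 44.6 and 44.9 TPM in WT libraries. The ranges met, because Rig1 KO 2 was below 3 of the WT libraries, and the log2 fold change of 0.16 (95% interval 0.01 to 0.32) did not pass (limma adjusted p = 0.0836). It passed without Rig1 KO 2 (0.21, adjusted p = 0.0458) and was 0.04 after median ratio scaling. The ratio of Slc38a1 to Slc38a2 was 0.183, 0.182, 0.185 and 0.159 in Rig1 KO libraries and 0.0722, 0.0675, 0.0741, 0.0766 and 0.0785 in WT libraries. That is a 2.40-fold difference with no overlap (exact permutation p = 0.0159, adjusted p = 0.0212), and it does not depend on the scaling. Slc38a2 alone already separated the groups and Slc38a1 changed little, so the ratio largely restates the fall of Slc38a2.

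Slc1a5 encodes ASCT2, a sodium-dependent exchanger that brings in glutamine. It was nearly level, with 217, 211, 218 and 209 TPM in Rig1 KO libraries and 213, 191, 217, 211 and 227 TPM in WT libraries. The Rig1 KO libraries lay inside the WT range. The log2 fold change was 0.02 with a 95% interval of -0.10 to 0.14 (limma adjusted p = 0.827), which leaves out changes as large as those of Slc3a2 or Slc38a2. After median ratio scaling it was -0.11 (adjusted p = 0.109).

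Slc7a1 encodes CAT1, the carrier of arginine and lysine. Its level was 16.5, 15.6, 16.5 and 16.9 TPM in Rig1 KO libraries and 17.6, 19.5, 19.2, 17.8 and 16.9 TPM in WT libraries. Only WT 5 was as low as a Rig1 KO library. The log2 fold change of -0.14 (SE 0.062) did not pass with TPM as deposited (limma adjusted p = 0.0873). It did pass after median ratio scaling (-0.26, adjusted p = 0.00996), after quantile scaling (-0.29, adjusted p = 0.00476) and with exon lengths (-0.18, adjusted p = 0.0371).

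Slc7a6 and Slc7a7 encode light chains of system y+L, which exchange basic amino acids for neutral ones together with sodium. Slc7a6 had 26.3, 26.6, 26.6 and 28.6 TPM in Rig1 KO libraries, against 24.1, 22.5, 21.9, 22.1 and 22.9 TPM in WT libraries. The Rig1 KO values were all above the WT values, by a small margin. The log2 fold change was 0.24 (SE 0.054, limma adjusted p = 0.00446), and it was 0.12 (adjusted p = 0.0939) after median ratio scaling, where the call was lost. It also missed the threshold with the mean of the B cell markers as a covariate (0.25, adjusted p = 0.0831).

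Slc7a7 was low in all libraries, with 2.84, 3.43, 2.58 and 2.89 TPM in Rig1 KO and 1.81, 1.86, 2.65, 2.68 and 2.54 TPM in WT. Its log2 fold change of 0.26 (SE 0.118) did not pass (limma adjusted p = 0.0996). Macrophages are known to express Slc7a7 strongly. Of the 11 macrophage and monocyte markers, all tested, 2 were called higher in Rig1 KO and 0 lower. Among all tested genes 33.5% were higher and 12.2% lower. The markers summed to 1667, 1881, 1804 and 1636 TPM in Rig1 KO and to 807, 978, 1539, 1586 and 1789 TPM in WT. WT 1 and WT 2 were lowest in these markers and in Slc7a7. In WT 3, WT 4 and WT 5, with more of the markers, Slc7a7 was within the lower end of the Rig1 KO values or just below them. The part of these cells in the Slc7a7 level was not tested. In the annotation the end of Slc7a7 overlaps Oxa1l on the other strand by 232 bp. The Slc7a7 to Slc7a6 ratio was 0.109 ± 0.014 in Rig1 KO and 0.102 ± 0.022 in WT (SD, n = 4 and 5), with an exact permutation p of 0.571.

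Slc43a1 encodes LAT3, a sodium-independent carrier of leucine and other branched-chain amino acids that needs no heavy chain. It had 5.09, 4.73, 4.97 and 4.21 TPM in Rig1 KO libraries, against 2.54, 2.05, 2.23, 2.08 and 2.80 TPM in WT libraries. All Rig1 KO libraries were above all WT libraries. The means were 4.75 ± 0.390 TPM in Rig1 KO and 2.34 ± 0.324 TPM in WT (SD, n = 4 and 5). The log2 fold change on log2(TPM + 1) was 0.79 (SE 0.096, limma adjusted p = 0.000101), which understates the 2.03-fold difference of the means because the gene is low. It rested on 136 to 202 reads in Rig1 KO libraries and 74 to 97 reads in WT libraries. Erythroid cells are known to use Slc43a1. Of the 4 erythroid markers tested, 3 were higher in Rig1 KO, beside 33.5% of all tested genes. Sums over the 7 measured markers were 173 to 314 TPM in Rig1 KO and 73.4 to 195 TPM in WT. WT 4 (195 TPM) exceeded Rig1 KO 1 (173 TPM) in this sum. The other Rig1 KO libraries exceeded all WT libraries in the sum. The part of erythroid cells in the Slc43a1 level was not tested.

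Promoter sequences were read for the 3 members that changed most, to show what lies before their starts. The RefSeq table of the GRCm38.p6 build held windows from 250 bases before to 50 bases after the start for 6 of the 9 genes (12 windows, since some genes have several starts). The 250 bases before the start are printed 5' to 3' on the gene's strand, at chr19:8713898-8714147 (minus strand) for Slc3a2, chr15:96699729-96699978 (minus strand) for Slc38a2 and chr2:84840073-84840322 (plus strand) for Slc43a1. Capitals mark the E-box CACGTG, a sequence bound by Myc and other factors.
Slc3a2: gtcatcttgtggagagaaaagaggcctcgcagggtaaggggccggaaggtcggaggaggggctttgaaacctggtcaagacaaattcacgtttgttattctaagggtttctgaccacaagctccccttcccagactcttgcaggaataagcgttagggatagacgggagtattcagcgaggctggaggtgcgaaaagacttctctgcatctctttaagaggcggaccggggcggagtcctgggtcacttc
Slc38a2: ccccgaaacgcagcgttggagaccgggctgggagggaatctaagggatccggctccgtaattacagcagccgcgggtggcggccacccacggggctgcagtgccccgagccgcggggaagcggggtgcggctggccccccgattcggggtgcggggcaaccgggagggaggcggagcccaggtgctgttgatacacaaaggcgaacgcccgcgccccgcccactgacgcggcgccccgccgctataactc
Slc43a1: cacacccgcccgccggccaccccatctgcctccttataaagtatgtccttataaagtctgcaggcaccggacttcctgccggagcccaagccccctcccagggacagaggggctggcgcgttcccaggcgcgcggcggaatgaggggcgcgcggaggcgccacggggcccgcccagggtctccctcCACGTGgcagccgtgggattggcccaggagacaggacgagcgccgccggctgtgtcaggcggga
The stretches differ in base composition, with 53.6% G+C for Slc3a2, 72.0% for Slc38a2 and 70.8% for Slc43a1. Of 4 short motifs searched on both strands of the windows, none was found for Slc3a2, Slc38a2 or Slc7a6. Sequence outside the windows was not searched, so this does not show that these genes lack such motifs. CACGTG occurred once for Slc43a1, beginning 64 bases before the start, and in 7.15% of all 32851 windows of the same length. The AP-1 motif TGANTCA occurred 123 bases before a start of Slc7a1 and in 7.81% of windows. The motif TGATGNAA, which resembles the element bound by C/EBP and ATF4 dimers, occurred 141 bases and 1 base before a start of Slc7a7 and in 3.97% of windows. The cAMP response element TGACGTCA, present in 1.79% of windows, was in none of the members' windows. A match is a run of letters only and binding was not measured.

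To set levels of different transporters side by side, exon lengths replaced the lengths behind the deposited TPM. Those were the genomic spans with introns for all 9 genes. The exon length was the union of all annotated exons of a gene, for Slc38a2 8838 bp of a span of 12339 bp. On this scale, in Rig1 KO libraries, Slc1a5 (312 ± 8.25 TPM) stood alone at the top, with Slc3a2 (145 ± 10.1 TPM) and Slc38a2 (138 ± 12.7 TPM) next and overlapping each other. In WT libraries Slc1a5 (317 ± 16.6 TPM), Slc38a2 (301 ± 10.8 TPM) and Slc3a2 (289 ± 15.4 TPM) were the highest and their ranges overlapped. Slc38a1 averaged 72.2 ± 5.29 TPM in Rig1 KO and 65.9 ± 3.16 TPM in WT. The order at the top depended on the length used. By deposited TPM, Slc38a2 was above Slc1a5 in Rig1 KO (means 275 and 214 TPM) and in WT (584 and 212 TPM).

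The order of the light chains was clear in Rig1 KO and not in WT. In Rig1 KO, Slc7a6 (63.4 ± 2.19 TPM by exon length) was above Slc7a5 (44.7 ± 4.53 TPM) with no overlap, whereas in WT, Slc7a6 (54.7 ± 2.22 TPM) and Slc7a5 (58.4 ± 4.64 TPM) overlapped. Slc7a1 followed at 37.0 ± 0.844 TPM in Rig1 KO and 42.2 ± 3.06 TPM in WT, then Slc7a7 at 13.2 to 18.4 TPM in Rig1 KO and 9.74 to 14.3 TPM in WT, and Slc43a1 at 7.40 ± 0.663 TPM in Rig1 KO and 3.73 ± 0.489 TPM in WT. Summed by exon length, the 9 genes reached 835 ± 19.7 TPM in Rig1 KO and 1144 ± 27.3 TPM in WT, and Slc38a2 made up 16.5% of the sum in Rig1 KO and 26.3% in WT. The sum was 73.0% of the WT sum, and 82.6% when Slc38a2 was left out. If introns were counted too, exon lengths overstate genes with much intronic signal, and the sources used here do not say whether they were. The length behind the deposited TPM was within 1% of the genomic span for 98.975% of 12776 genes compared. It was within 1% of the exon length for 1.644%. The levels, orders and sums by exon length may therefore not be those of mature mRNA.

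**Figure D4:**
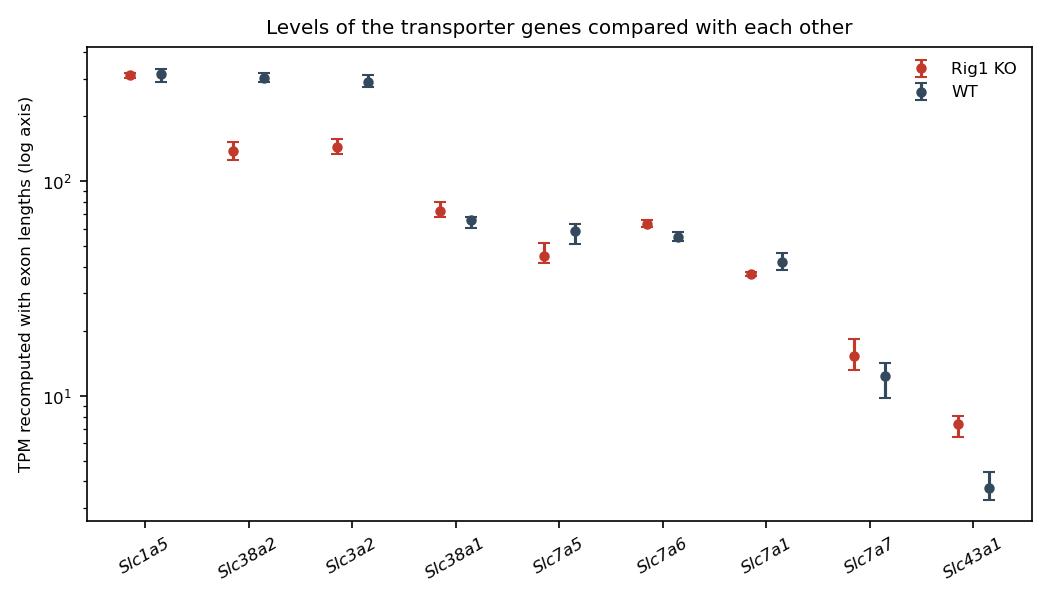
Levels of the 9 transporter genes as TPM recomputed with exon lengths (vertical log axis), with Rig1 KO in red left of WT in dark blue; points are means and whiskers span the lowest to the highest library. Slc1a5 alone is at the top in Rig1 KO, and Slc1a5, Slc38a2 and Slc3a2 share the top in WT.

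The genes with the profile closest to a member were found among all tested genes by the root mean square difference of mean-centred log2(TPM + 1) over the 9 libraries. For Slc3a2 these were Selenok, which encodes a selenoprotein of the endoplasmic reticulum (0.065), Ypel5 (0.074) and Prdx6, a peroxidase that reduces lipid peroxides (0.078). Selenok had 68.4, 65.8, 70.8 and 69.9 TPM in Rig1 KO libraries and 133, 118, 129, 141 and 143 TPM in WT libraries. For Slc7a5 they were Pi4k2a, a phosphatidylinositol kinase gene (0.060), Sgf29 (0.063) and Rab5if (0.064). Likeness of profile carries no statement on shared function.

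Other amino acid transporters listed with the plasma membrane were counted in the same test. Of 39 listed, 37 were measured and 11 were expressed enough to test. Of these 11, 6 rose, 0 fell and 5 did not pass, beside 33.5% higher and 12.2% lower among all tested genes. After median ratio scaling 5 rose and 3 fell, beside 23.7% and 21.4%. Whether the list differs from other genes was not tested. Slc43a2, which encodes LAT4, a relative of Slc43a1, had 27.5 ± 1.24 TPM in Rig1 KO and 19.8 ± 1.49 TPM in WT (SD, n = 4 and 5, limma adjusted p = 0.000342). Slc6a19, a carrier of neutral amino acids best known from gut and kidney, had 23.4 ± 1.39 and 14.2 ± 3.66 TPM (limma adjusted p = 0.00286). Slc38a7 had 12.4 ± 0.857 and 8.36 ± 1.46 TPM and Slc38a6 had 4.29 ± 0.589 and 2.69 ± 0.261 TPM, in Rig1 KO and WT in that order, and both rose. Slc38a7 is counted in this list although it is known to act at the lysosomal membrane. The median log2 fold change of the list was 0.45, beside 0.13 for all tested genes.

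Among 6 tested transporters of lysosomes, which release amino acids from degraded protein, 2 rose and 0 fell, a share higher near the 33.5% of all tested genes. Slc36a1 had 19.5 ± 2.24 TPM in Rig1 KO and 14.3 ± 1.11 TPM in WT (limma adjusted p = 0.00287), and Ctns, the cystine carrier, had 19.6 ± 1.44 and 16.8 ± 0.977 TPM (adjusted p = 0.0301, and 0.182 after median ratio scaling). Slc38a9, which reports lysosomal arginine to mTORC1, had 9.27 ± 1.18 and 8.62 ± 0.335 TPM and did not pass. Slc15a4, at 6.61 ± 1.11 and 8.63 ± 1.76 TPM, passed after median ratio scaling only (adjusted p = 0.0147). The median of this list, 0.15, was near that of all genes.

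Of 36 tested genes of the mTORC1 complex and its amino acid sensors, 13 rose, 3 fell (Itfg2, Sesn2 and Mios) and 20 did not pass, a share of 44.4% beside 45.7% of all tested genes. After median ratio scaling 10 rose and 5 fell. Lamtor4, a subunit of the lysosomal scaffold that recruits mTORC1, had 93.3 ± 3.50 TPM in Rig1 KO and 48.0 ± 2.10 TPM in WT (limma adjusted p = 3.19e-07). Lamtor3 of the same scaffold had 69.8 ± 2.76 and 52.2 ± 3.63 TPM. Wdr24, of the GATOR2 complex that relieves mTORC1 of inhibition, had 101 ± 1.95 and 75.6 ± 3.94 TPM, and Depdc5, of the inhibitory GATOR1 complex, had a log2 fold change of 0.43, all of them called higher in Rig1 KO.

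Atf4 encodes the transcription factor that is translated in amino acid shortage and is known to switch on transporter genes, Slc3a2, Slc38a2 and Slc7a5 among them. It had 524, 511.5, 523 and 536 TPM in Rig1 KO libraries, against 1168, 1130, 1098, 1086 and 1187 TPM in WT libraries. The groups stood far apart, with a log2 fold change of -1.11 (SE 0.047, limma adjusted p = 4.60e-08). Those of Slc38a2, Slc3a2 and Slc7a5 were -1.09, -0.95 and -0.33. The part of Atf4 in these changes was not tested. The transcript of Atf4 does not show the amount of its protein, which is set mainly at translation.

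Of 15 tested genes of the amino acid deprivation response, Atf4 included, 5 rose, 4 fell and 6 did not pass, beside 33.5% higher and 12.2% lower among all tested genes. After median ratio scaling 3 were higher and 6 lower, beside 23.7% and 21.4%. Atf3 was 0.327 ± 0.111 TPM in Rig1 KO and 12.1 ± 5.38 TPM in WT, and fell (limma adjusted p = 3.07e-06). Ddit4, an inhibitor of mTORC1 that glucocorticoids and stress also induce, was 926 ± 210 TPM in Rig1 KO and 201 ± 32.0 TPM in WT and rose (limma adjusted p = 1.57e-06). Cebpg, a dimer partner of ATF4, was 62.6 ± 7.16 and 41.6 ± 2.69 TPM and rose.

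Other factors known to act on transporter genes moved less than Atf4. Myc, which drives Slc7a5 and Slc1a5 in activated T cells, had 329 ± 12.3 TPM in Rig1 KO and 375 ± 19.3 TPM in WT, a log2 fold change of -0.19 (limma adjusted p = 0.0140). Mycn had 5.40 ± 1.82 and 2.62 ± 0.808 TPM and was higher in Rig1 KO (adjusted p = 0.0155), with an overlap between the groups. Max, the partner of Myc, had 110.1 ± 5.37 and 117 ± 3.38 TPM and passed only after median ratio scaling (adjusted p = 0.167 as deposited and 0.0148 scaled). Of 11 tested genes of early T cell activation, 10 fell in Rig1 KO, beside 12.2% lower among all tested genes. Il2ra did not pass (limma adjusted p = 0.772). Sums over the 12 measured genes were 1453 to 1505 TPM in Rig1 KO and 11626 to 12717 TPM in WT. Most of each sum came from Junb, Fos, Jun and Fosb.

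Of 16 tested genes of glutamine, branched-chain and arginine metabolism, 1 rose (Bckdk), 4 fell (Odc1, Got1, Arg1 and Arg2) and 11 did not pass. Over all tested genes 33.5% were higher and 12.2% lower. After median ratio scaling 1 of the 16 was higher and 6 were lower. Odc1, the enzyme that turns ornithine into the polyamine putrescine, averaged 121.5 ± 14.4 TPM in Rig1 KO and 483 ± 17.3 TPM in WT (SD, n = 4 and 5). Its groups were far apart, with a log2 fold change of -1.99 (SE 0.074, limma adjusted p = 1.93e-08). Got1, a transaminase of glutamate and aspartate, had 19.4 ± 1.58 TPM in Rig1 KO and 30.3 ± 2.51 TPM in WT, and Arg1, an arginase best known from myeloid cells, had 3.19 ± 0.773 and 6.05 ± 0.989 TPM. Bckdk, the kinase that holds back branched-chain amino acid breakdown, was higher, at 46.5 ± 3.31 and 35.2 ± 3.27 TPM.

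The 20 cytosolic aminoacyl-tRNA synthetases, which load amino acids on tRNA, were nearly level. Of the 20, 2 rose (Aars and Mars1), 1 fell (Cars) and 17 did not pass, while 45.7% of all tested genes were called. Aars had 36.0 ± 3.70 TPM in Rig1 KO and 27.6 ± 1.42 TPM in WT (limma adjusted p = 0.00244), and Cars had 9.66 ± 0.207 and 11.6 ± 0.504 TPM (adjusted p = 0.00794). Rars had 38.2 ± 1.43 and 42.0 ± 2.43 TPM and passed only after median ratio scaling (adjusted p = 0.0108).

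**Figure D5:**
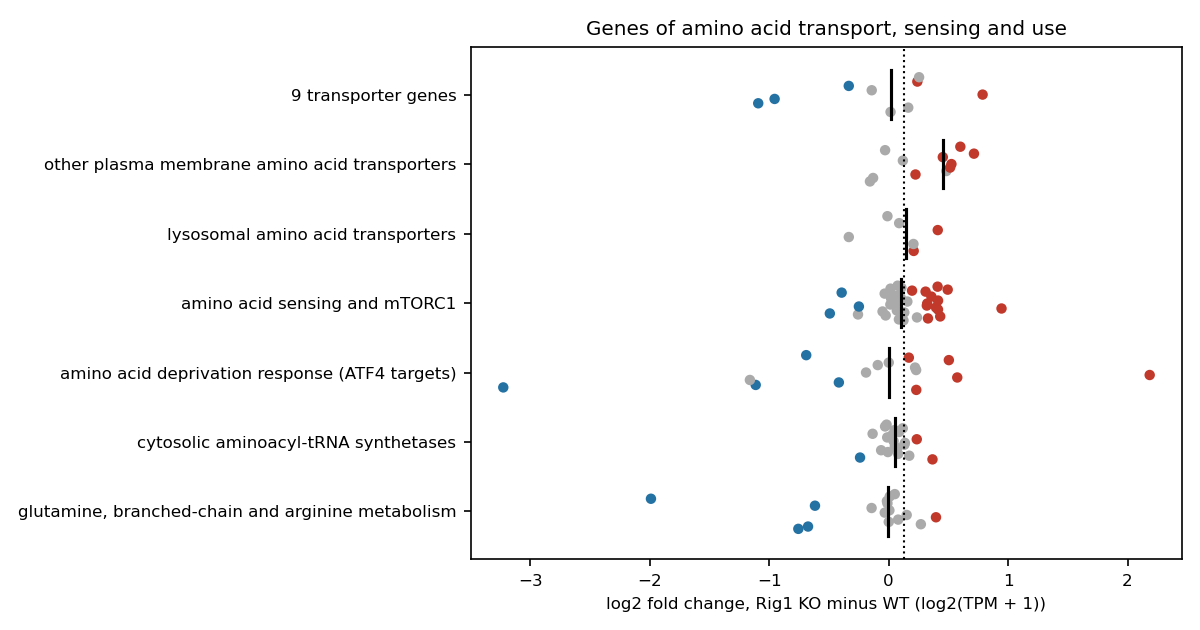
Log2 fold changes (horizontal axis, Rig1 KO minus WT, on log2(TPM + 1)) of the tested genes of each list, with 1 point per gene in red where called higher, blue where called lower and grey where not called; vertical bars are list medians and the dotted line is the median of all tested genes, 0.13. The 9 transporter genes spread to both sides, the other plasma membrane transporters have a median of 0.45, and the synthetases stay near 0.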

How the data were processed

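Per the file headers, the values the authors deposited are TPM, with 1 table for each library. The submitters' processing notes name fastp, featureCounts and the mouse build mm39 (GRCm39). The sources used here give no aligner, annotation, strand setting, version or gene length. Reads behind the TPM were recovered as the smallest whole numbers in each gene's ratios after removing library scale (relative tolerance 2e-12, 100% of genes), which gives lower bounds. The implied lengths of all 9 members equalled the genomic span, introns included, so levels of different genes were compared after recomputing TPM with exon lengths (GENCODE M21, GRCm38).

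A gene was tested if 4 or more libraries reached 1 TPM. The test was limma (version 3.58.1, R version 4.3.3) on log2(TPM + 1) without covariates, the variance trended on the mean, and was also tested on simulated data. Adjusted p-values are from this fit unless an exact permutation test (scipy 1.17.1) is named, in which the two-sided p is the doubled one-sided p over all assignments of the libraries. Intervals are 95% and not adjusted. The members, lists and tests were chosen with earlier results of these data known. Of 235 symbols in 8 gene lists and 11 marker lists, 222 were analysed. Named genes are the 9 members, up to 4 genes per list with the smallest p, the listed transcription factors, the 3 closest profiles to Slc7a5 and to Slc3a2 and the targeted gene. Itfg2, Sesn2, Mios, Arg2 and Il2ra were chosen after their values were seen, and all measured CD8 T cell markers were named. Alternatives covered pseudocounts, filters, scalings, exon lengths, the trend, left-out libraries, a B cell covariate and the replicate block.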

Additional observations from a re-analysis of the deposited data

Results flagged for a closer look

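Within 26 groups of values examined (9 genes and 4 log2 ratios in each genotype), 4 held a library that stood apart from its group by Dixon's criterion at 95%, a criterion that chance meets in about 1 of 20 groups. Slc38a2 was highest in WT 1, at 617 TPM, and the other WT libraries lay between 572 and 582 TPM. Slc7a6 was highest in Rig1 KO 4, at 28.6 TPM. The log2 ratio of Slc38a1 to Slc38a2 was lowest in Rig1 KO 4, at -2.65, and the log2 ratio of Slc7a6 to Slc7a5 was highest in WT 5, at 0.23. Of all libraries, WT 5 had the highest marker sums for B cells (1160 TPM), CD4 T cells (66.0 TPM) and neutrophils (606 TPM). It had the lowest sum for CD8 T cells (2857 TPM). The part of other cells in its ratio was not tested.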

How the results depend on the processing

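The log2 fold changes of Slc38a2 (-1.23 to -0.95), Slc3a2 (-1.08 to -0.82) and Slc43a1 (0.69 to 1.00) kept their direction and call under all alternatives in which they could be tested (22, 22 and 21). That of Slc7a5 ran from -0.49 to -0.25 and missed the threshold only without Rig1 KO 1 and 2, which was chosen after seeing the data, as was leaving out Rig1 KO 3 and 4. Without Rig1 KO 1 and 2, Slc38a1 passed (0.26, adjusted p = 0.0272). The number of members higher was 1 rather than 2 with a mean TPM of at least 5 (which removes Slc7a7 and Slc43a1), after median ratio and quantile scaling, and with the B cell covariate, under which 2891 genes were called rather than 4817. Leaving out 1 library at a time gave 2 to 3 members higher, 3 to 3 lower and 4036 to 4813 genes called. The causes were not tested. With the replicate number as a block (libraries 1 to 4 of each group) 4782 genes, 2 members higher and 3 lower were called. Libraries of the same number did not deviate together (correlations of their deviations from -0.10 to 0.10). This does not exclude a pairing, on which the labels say nothing. The paired differences of the log2 ratios were 0.53 (Slc7a5/Slc3a2), 1.28 (Slc38a1/Slc38a2) and 0.65 (Slc7a6/Slc7a5), where 4 pairs cannot reach the threshold (exact permutation, adjusted p = 0.167). Leaving out 1 library gave 0.53 to 0.65, 1.23 to 1.31 and 0.56 to 0.65 for these ratios. Slc7a7 and Slc43a1 rest on few reads, at least 131 and 74 per library.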
